A study of Mus musculus with 20 samples.

Results

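Pmp22 is a gene of the peripheral myelin, and 7 further genes whose mutations cause inherited neuropathies were examined with it in the mouse intervertebral disc: Mtmr2, Fig4, Lmna, Mfn2, Gdap1, Litaf and Sh3tc2. They were found by their symbols in the annotation of the array, where each of the 8 has a single probe set among those of 19505 named genes. Expression was measured with Clariom S arrays in the annulus fibrosus (AF), the fibrous ring of the disc, and the nucleus pulposus (NP), its gel-like core. Both tissues came from the same 10 mice, 5 ank and 5 WT littermates, all 13 weeks old, with 2 males and 3 females per genotype, which gave 20 arrays. The ank/ank mice (strain C3FeB6 A/Aw-J-Ank ank/J), called ank here, carry in all of their cells a mutation of Ank, the gene of an efflux transporter on which extracellular pyrophosphate depends. The labels name no treatment of either genotype. Discs of a mouse were pooled for each tissue. The methods of the study name caudal discs, whereas the sample labels name lumbar discs in addition. The values are log2 signals, a difference of 1 between groups being a doubling, and arrays are named by the number of the mouse.

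Pmp22 encodes a membrane protein with several spans that Schwann cells place in compact myelin, and both an extra copy of the gene and its loss cause demyelinating neuropathy. It is also known as growth arrest-specific 3, because cultured fibroblasts raise it when they stop dividing, and many cells that make no myelin express it. The other genes act in membrane traffic or in the nucleus and mitochondria of all cells. Mtmr2 and Fig4 encode lipid phosphatases that act on phosphoinositides of endosomes and lysosomes, Litaf a protein of late endosomes, and Sh3tc2 a partner of the recycling endosome GTPase Rab11. Mfn2 encodes a mitochondrial fusion protein, Gdap1 a protein of the outer mitochondrial membrane, and Lmna the lamins A and C of the nuclear envelope.

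Alternative first exons place the start of Pmp22 at several sites, and the array gives 1 value for the gene, which does not tell them apart. RefSeq (GRCm38.p6) lists 4 start windows for Pmp22 on chromosome 11, each from 250 bases before to 50 bases after the start. The first and the last are printed because they differ most in base composition, and the first window of Mtmr2, on chromosome 9, because Mtmr2 varied together with Pmp22 in the AF. Capitals mark the GC box motif, GGGCGG on either strand.
Pmp22 window 1, chr11:63128732-63129031, + strand: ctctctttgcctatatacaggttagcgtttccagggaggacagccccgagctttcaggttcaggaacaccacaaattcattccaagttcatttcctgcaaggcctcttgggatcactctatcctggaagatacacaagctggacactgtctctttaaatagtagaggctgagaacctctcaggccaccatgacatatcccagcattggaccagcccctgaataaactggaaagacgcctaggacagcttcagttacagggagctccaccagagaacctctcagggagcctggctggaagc
Pmp22 window 4, chr11:63132553-63132852, + strand: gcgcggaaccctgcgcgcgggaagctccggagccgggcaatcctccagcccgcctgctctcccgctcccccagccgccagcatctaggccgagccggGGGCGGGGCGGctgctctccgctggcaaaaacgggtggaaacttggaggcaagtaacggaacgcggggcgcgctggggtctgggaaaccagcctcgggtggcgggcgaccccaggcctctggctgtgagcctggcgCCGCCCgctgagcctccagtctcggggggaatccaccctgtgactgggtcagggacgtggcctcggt
Mtmr2 window 1, chr9:13748929-13749228, + strand: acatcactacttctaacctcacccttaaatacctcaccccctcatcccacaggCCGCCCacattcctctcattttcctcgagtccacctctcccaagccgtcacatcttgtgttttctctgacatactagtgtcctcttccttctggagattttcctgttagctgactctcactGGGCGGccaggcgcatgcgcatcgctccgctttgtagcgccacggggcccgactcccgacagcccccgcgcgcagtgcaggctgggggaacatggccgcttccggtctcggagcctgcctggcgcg
Window 1 of Pmp22 held 50.7% G and C, 3 CpG dinucleotides and no GC box, against 72.3%, 30 CpG and 3 GC boxes, 2 of them overlapping, in window 4. The median over all 32851 windows was 52.7% G and C with 7 CpG, and 35.7% of the windows held a GC box. Window 1 of Mtmr2 had 60% G and C, 20 CpG and 2 GC boxes. Windows were found for 6 of the 8 genes, 14 windows in all. The AP-1 motif TGANTCA, searched on both strands and present in 7.81% of all windows, occurred once among these 14, in the first window of Lmna.

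The quality of the arrays bears on every value below. The background of an array was set at the 95th percentile of its 1425 receptor genes for odours, pheromones and trace amines, taken as silent in disc tissue, and a gene entered the tests of a tissue if 5 or more of the 10 arrays exceeded it. The control AUC is the chance that one of the 1324 positive control probe sets is brighter than one of the 5222 negative ones. It ran from 0.590 to 0.749 in AF ank, 0.607 to 0.763 in AF WT, 0.71 to 0.785 in NP ank and 0.725 to 0.789 in NP WT, and the lowest AF arrays were ank 31 and WT 53. Spike-in controls divided the arrays of each tissue into set A, with poly-A control signals of 8.52 to 10.11, and set B, with 3.24 to 4.05, and both sets held both genotypes. Array AF WT 33 stood apart in the markers of several other tissues. Its 15 skeletal muscle markers averaged 13.23, against 5.68 to 7.44 in AF ank and 5.76 to 6.89 in the other AF WT arrays, and its osteoblast markers 13.92, against 6.19 to 8.39 in AF ank and 5.98 to 7.08 in the other AF WT arrays. Its markers of macrophages and osteoclasts (12.30), adipocytes (8.88) and endothelium (8.07) were also the highest of the AF. The tissues are labelled AF and NP, and the 7 NP markers above background averaged 10.69 to 15.62 in AF ank and 9.56 to 14.08 in AF WT, against 16.23 to 16.72 in NP ank and 16.30 to 16.86 in NP WT, so the AF samples differed widely in NP marker signal. Each tissue sample is a mixture of cells, and fewer cells of a type cannot be told apart from less RNA per cell.

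In the AF, the mean of Pmp22 was higher in ank mice than in WT mice by 2.18 on the log2 scale, a 4.53-fold difference. Its signals in AF ank were 12.51 in mouse 31, 15.54 in mouse 34, 14.01 in mouse 39, 15.56 in mouse 41 and 15.38 in mouse 48. In AF WT they were 13.31 in mouse 32, 13.33 in mouse 33, 10.57 in mouse 53, 12.29 in mouse 55 and 12.60 in mouse 59. Of the 5 ank arrays, 4 lay above the highest WT array, and mouse 31 lay within the WT range, so the groups overlapped by that array. AF ank arrays averaged 14.60 ± 1.33 and AF WT arrays 12.42 ± 1.13 (SD, n = 5 each). The difference had a standard error of 0.70 and a 95% interval of 0.66 to 3.70 in limma, with an unadjusted p of 0.0089. Adjusted over the 4077 genes tested in the AF, p was 0.946, so the difference did not pass the test.

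**Figure D1:**
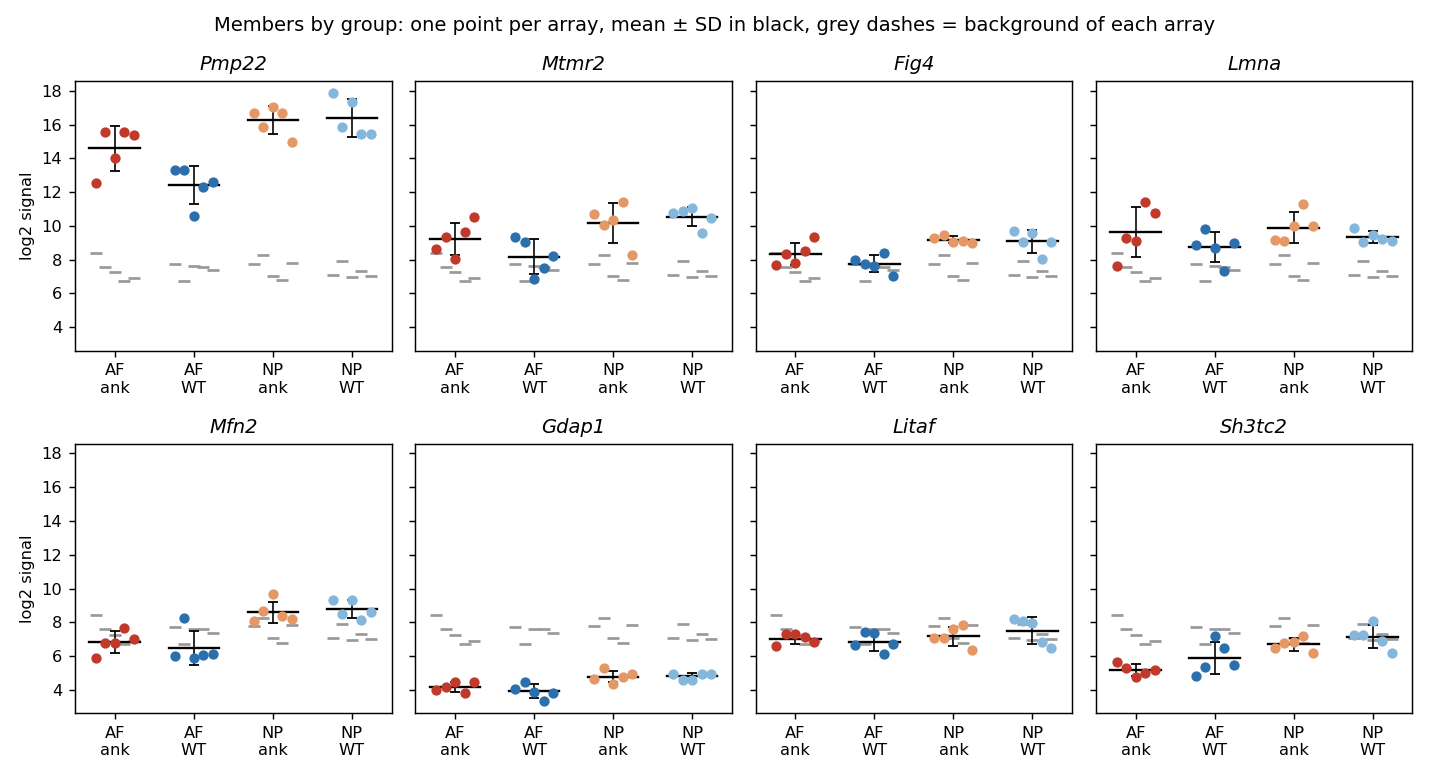
Log2 signal (vertical axis) of the 8 genes in the 4 groups (horizontal axis: AF ank, AF WT, NP ank, NP WT), one point per array, with the mean and SD in black and the background of each array as a grey dash. Pmp22 lay far above background in every array, from 10.57 to 17.85, whereas Gdap1 lay below it in all 20.

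At the thresholds of the study, an unadjusted p under 0.05 and a fold change of at least 1.75, Pmp22 counted as raised in the AF. The same thresholds were met by 145 of the 4077 AF genes in that direction, or 3.56%, and by 6 genes in the other. After Benjamini-Hochberg adjustment limma called 0 genes, or 0%, where 154 had an unadjusted p under 0.05, and the methods' t-test left 0 as well. The AF genes tested were shifted as a set, since 72.4% of them had a higher mean in ank, with a median difference of 0.28. Quantile normalization brought this median to 0.05. Over all 19505 genes, with no background filter, the median was 0.0008. In what follows, all AF genes and all NP genes stand for the genes tested in that tissue. Pmp22 differed by 1.60 after quantile normalization (limma, adjusted p = 0.997), and its difference on the deposited scale exceeded that of 99.1% of the genes tested.

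The AF difference in Pmp22 is given also within the sets and the sexes, between which it was not tested. Within spike-in set B it was 3.16, with 14.01 to 15.56 in ank and 10.57 to 12.60 in WT, and the groups did not overlap (n = 3 each), as was the case, with ank higher, for 994 of the 4077 genes, or 24.4%. Within set A it was 0.70, with 12.51 and 15.54 in ank against 13.31 and 13.33 in WT. It was 2.97 in females (n = 3 each) and 0.99 in males (n = 2 each). With the control AUC as a covariate it was 1.74 (limma, adjusted p = 0.845), and without arrays ank 31 and WT 53, those of the lowest AUC, it was 2.24. Leaving out each mouse in turn gave 1.72, without WT 53, to 2.70, without ank 31.

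In the NP, Pmp22 did not differ between the genotypes beyond the spread of the arrays. The NP ank signals were 16.69 in mouse 31, 15.87 in mouse 34, 17.01 in mouse 39, 16.69 in mouse 41 and 14.99 in mouse 48. The NP WT signals were 17.85 in mouse 32, 15.83 in mouse 33, 17.33 in mouse 53, 15.46 in mouse 55 and 15.42 in mouse 59. The groups overlapped throughout, with means of 16.25 ± 0.82 in NP ank and 16.38 ± 1.13 in NP WT (SD, n = 5 each). The difference was −0.13, with a 95% interval of −1.27 to 1.01 (limma, adjusted p = 0.991 over 6341 genes). Its sign turned without WT 32, where it was 0.24, without WT 53, where it was 0.11, and without ank 48, where it was 0.18. In this tissue limma called 0 genes, or 0%, after adjustment, with 269 at an unadjusted p under 0.05, while 32 genes, or 0.505%, were higher and 178, or 2.81%, were lower in ank at the thresholds of the study. The median difference of all NP genes was −0.11, and over all 19505 genes, with no background filter, it was 0.02.

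The genotype difference in Pmp22 was 2.31 larger in the AF than in the NP (95% interval 0.38 to 4.24, unadjusted p = 0.021 in limma). Over the 3902 genes tested in both tissues the adjusted p was 0.873, and the interaction was called for 0 of them, or 0%, with 177 at an unadjusted p under 0.05. Without mouse WT 53 it was 1.61 (unadjusted p in limma 0.091), without ank 34 it was 1.98 (0.064) and without ank 48 it was 1.80 (0.079). The same difference between the tissues was 1.42 for Mtmr2, 0.51 for Fig4 and 0.35 for Lmna, with adjusted p of 0.873 to 0.941. Within each mouse, AF minus NP for Pmp22 on the deposited scale was −4.17, −0.33, −3.01, −1.13 and 0.39 in ank mice 31, 34, 39, 41 and 48, and −4.54, −2.50, −6.76, −3.17 and −2.83 in WT mice 32, 33, 53, 55 and 59. The AF value thus lay below the NP value in 4 of 5 ank mice and in 5 of 5 WT mice, and the ank mice 34 and 48 had tissues within 0.39 of each other. With the arrays centred on their medians it lay below in 3 of 5 ank mice and in 5 of 5 WT mice, mouse 34 being at 0.23 and mouse 48 at 0.96.

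**Figure D2:**
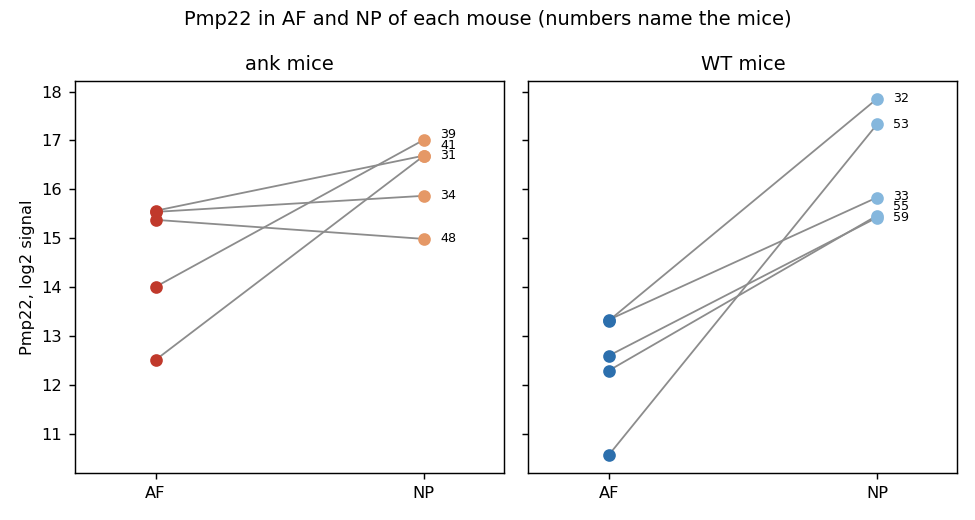
Log2 signal of Pmp22 (vertical axis) in the AF and NP (horizontal axis) of the 5 ank mice (left panel) and the 5 WT mice (right panel), with a line joining the tissues of each mouse. The WT lines all climb steeply towards the NP, and the ank lines differ, that of mouse 48 falling slightly and that of mouse 31 climbing about as steeply as in WT.

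Mtmr2, the phosphatase that removes a phosphate from phosphoinositides of endosomes, had the next largest difference in the AF. It measured 8.60, 9.36, 8.04, 9.67 and 10.50 in AF ank 31, 34, 39, 41 and 48, against 9.34, 9.02, 6.86, 7.51 and 8.20 in AF WT 32, 33, 53, 55 and 59. AF ank arrays averaged 9.23 ± 0.95 and AF WT arrays 8.19 ± 1.03 (SD, n = 5 each), and 3 ank arrays lay above every WT array. The difference of 1.05 (SE 0.58, unadjusted p = 0.099, adjusted p = 0.946) reached the fold but not the p of the study's thresholds, and it was −0.20 in set A but 1.88 in set B. In the NP, Mtmr2 averaged 10.17 ± 1.17 in ank, where mouse 48 had 8.28 and the others 10.08 to 11.43, and 10.55 ± 0.58 in WT, with 9.57 to 11.03. That difference was −0.37 (adjusted p = 0.974) and turned to 0.10 without ank 48.

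Fig4, which dephosphorylates the lipid that the kinase Pikfyve makes on endosomes, varied less. It measured 7.71, 8.35, 7.83, 8.54 and 9.33 in AF ank, against 7.99, 7.71, 7.65, 8.42 and 7.02 in AF WT, in the same order of mice. Only 4 arrays of each genotype were above background in the AF, and the difference was 0.59 (SE 0.41, adjusted p = 0.946). In the NP its ank arrays were tightly grouped, at 8.97 to 9.45, within a WT range of 8.02 to 9.72. The NP difference was 0.09 (95% interval −0.64 to 0.81, adjusted p = 0.991).

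Lmna, which encodes the lamins that line the nucleus, gave 7.64, 9.31, 9.12, 11.42 and 10.77 in AF ank 31, 34, 39, 41 and 48, and 8.86, 9.81, 8.69, 7.32 and 8.99 in AF WT 32, 33, 53, 55 and 59. Mice ank 41 and 48 were above every WT array and ank 31 was near the bottom of the WT range. The difference was 0.92 (SE 0.69, adjusted p = 0.946), and it was −0.86 within set A and 2.10 within set B. In the NP the signals were 9.14, 9.08, 9.97, 11.31 and 10.01 in ank and 9.86, 9.02, 9.44, 9.24 and 9.11 in WT. Mouse ank 41 again had the highest value, 3 ank arrays exceeded the WT range, and the difference was 0.57 (SE 0.40, adjusted p = 0.973). Within NP set A it was −0.04.

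Mfn2, which joins the outer membranes of mitochondria, was above background in 5 of 5 arrays of both NP groups but in only 2 AF ank arrays and 1 AF WT array, so it was tested in the NP alone. It measured 8.08 to 9.66 in NP ank (8.59 ± 0.63) and 8.13 to 9.35 in NP WT (8.77 ± 0.54; SD, n = 5 each), a difference of −0.17 (adjusted p = 0.987). In the AF it lay between 5.88 and 7.67 in ank. In WT it was 8.27 in mouse 33, the array with the high muscle, osteoblast, macrophage, adipocyte and endothelial markers, and 5.87 to 6.15 in the others. The part of these markers in that value was not tested. Gdap1, which takes part in mitochondrial fission, was below background in all 20 arrays, with 3.79 to 4.48 in AF ank, 3.33 to 4.49 in AF WT, 4.35 to 5.27 in NP ank and 4.59 to 4.96 in NP WT.

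Litaf, a zinc-binding protein of late endosomes, stayed near background in both tissues. It measured 6.61 to 7.33 in AF ank and 6.14 to 7.42 in AF WT, where 2 and 1 arrays were above background. In the NP, 2 of 5 ank and 3 of 5 WT arrays were above it, with 7.06, 7.09, 7.59, 7.82 and 6.35 in ank and 8.18, 8.07, 7.96, 6.83 and 6.51 in WT. Within set A all 3 ank arrays (7.06 to 7.59) lay below the 3 WT arrays (7.96 to 8.18), a difference of −0.82 and a separation that 6.86% of the NP genes showed, while within set B it was 0.41. Over all NP arrays the difference was −0.33 (adjusted p = 0.973). Sh3tc2, which myelinating Schwann cells use to recycle receptors, was above background in 0 AF arrays, at 4.74 to 5.66 in ank and 4.83 to 7.19 in WT, and in 1 NP ank array, at 6.16 to 7.19 in that group, and 2 NP WT arrays, at 6.20 to 8.06.

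**Figure D3:**
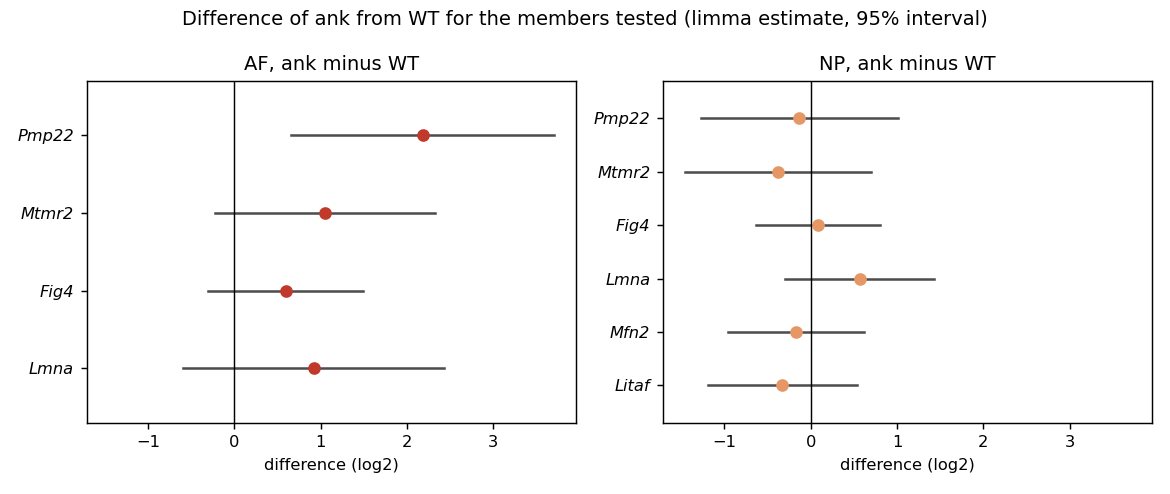
Difference of ank from WT in log2 units (horizontal axis) for the genes tested in the AF (left panel, 4 genes) and the NP (right panel, 6 genes), with the limma estimate as a point and its 95% interval as a line. Only the AF interval of Pmp22, 0.66 to 3.70, stayed clear of 0.

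Across the genes tested, 4 of 4 had a higher mean in AF ank, beside 72.4% of all AF genes. The median difference of the 4, Pmp22 included, was 0.98, beside 0.28 for all AF genes. In NP ank 2 of 6 had a higher mean, beside 37.8% of all NP genes. The median there was −0.15, beside −0.11 for all NP genes. The 8 genes were chosen with earlier results of these data known. Pmp22 alone met the thresholds of the study, in the AF. The other 3 AF genes varied with Pmp22 across the 10 AF arrays, both genotypes together. Pearson's r with Pmp22 was 0.849 for Mtmr2, 0.712 for Lmna and 0.640 for Fig4. In the NP it was 0.666, 0.283 and 0.639. The arrays of both correlations share the differences in quality, so r is given as a description. Over all 20 arrays, after removal of the tissue means, the median r of 3901 genes with Pmp22 was 0.43. There Mtmr2 ranked 132nd (r = 0.779), Fig4 738th (0.635) and Lmna 895th (0.608).

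For the comparison of the AF with the NP, each array was centred on its median because the AF and NP medians differed. Of the 8 genes, 6 were tested. Only Pmp22, Mtmr2, Fig4 and Lmna had passed the background filter in both tissues. Of these, Pmp22, Mtmr2 and Fig4 were called lower in the AF. Pmp22 was lower by 2.42 (limma estimate −2.42, SE 0.48, adjusted p = 3.39e-04 over 6516 genes) and Mtmr2 by 1.27 (estimate −1.27, adjusted p = 0.014). Fig4 was lower by 0.69 (estimate −0.69, adjusted p = 0.031), but with the mouse as a block Fig4 no longer passed (adjusted p = 0.059). Without 1 mouse it failed as well for WT 32, WT 53, WT 59, ank 31, ank 34 and ank 39 (limma, adjusted p 0.0611 to 0.0888). The Mtmr2 call was lost without mouse WT 53 (limma, adjusted p = 0.056) and without mouse ank 39 (limma, adjusted p = 0.0501). Mfn2 was called lower as well, but it was above background in 10 NP arrays and only 3 AF arrays, so it entered the test through the NP, where it is high, and the size of its difference is not given. Litaf, which was not called, also entered the test through the NP, being above background in only 3 AF arrays. The size of its difference is likewise not given. Lmna differed by −0.04. Lower AF values were common among the 6516 genes, which had passed the background filter in either tissue, 6341 in the NP and 4077 in the AF. With no background filter the median over 19505 genes was −0.055. Of the 6516 genes, 3680, or 56.5%, were called lower in the AF, and their median over all 6516 was −0.88. Quantile normalization over all 20 arrays took this median to −0.26 and left Pmp22 at −1.33 (adjusted p = 0.0029), whereas Mtmr2 was then −0.42 (adjusted p = 0.344) and Fig4 0.02. Lmna turned to 0.79 under this scaling and did not pass the test.

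Pmp22 signals were higher in arrays of a higher control AUC in both tissues, although neither correlation passed the adjustment. Against the control AUC, Pearson's r was 0.732 in the AF (permutation p = 0.016; Spearman's rho 0.806, permutation p = 0.0073) and 0.783 in the NP (permutation p = 0.012; rho 0.697, permutation p = 0.031), each over 10 mice. The adjusted p of both Pearson correlations was 0.066 over 8 relations, and those of the rank correlations were 0.058 in the AF and 0.124 in the NP. With the 2 arrays of the most extreme AUC left out, r was 0.934 in the AF and 0.704 in the NP, and within the larger spike-in set of each tissue it was 0.984 (AF set B, 6 mice) and 0.901 (NP set A, 6 mice). Within AF set B the 3 ank arrays had both the higher AUC and the higher Pmp22, so there the genotype and the quality of the arrays cannot be told apart, and over the whole AF the difference with AUC as a covariate is the 1.74 given above.

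**Figure D4:**
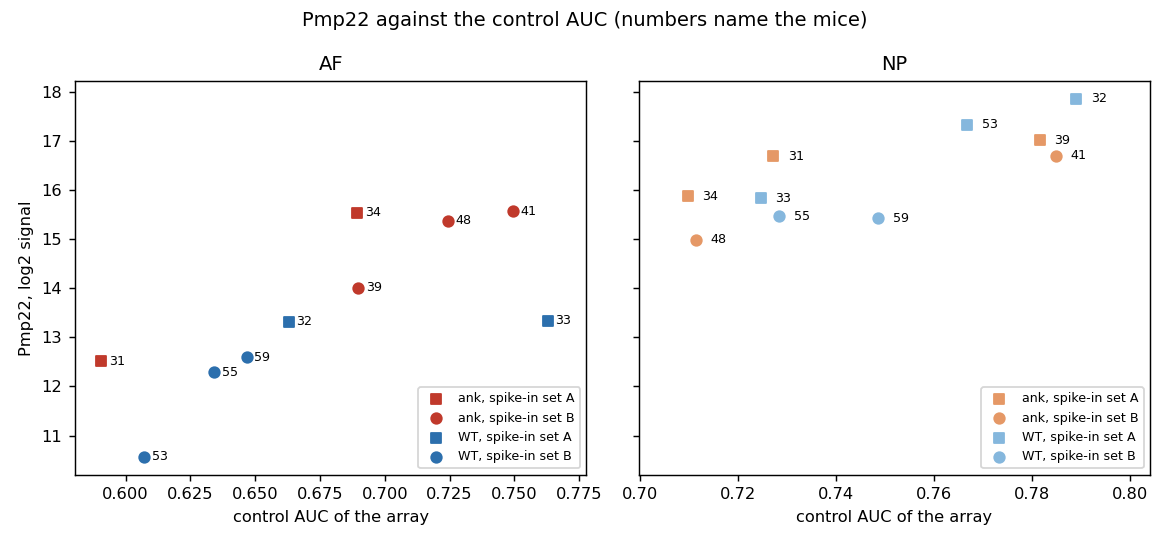
Log2 signal of Pmp22 (vertical axis) against the control AUC of each array (horizontal axis, no unit) in the AF (left) and NP (right), with squares for spike-in set A, circles for set B, red and orange for ank and blue for WT. Signals are higher at a higher AUC (r = 0.732 in the AF and 0.783 in the NP), and AF WT 33 has the highest AF AUC, 0.763, with a signal of 13.33.

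NP marker signal in the AF samples varied with Pmp22 more loosely, with r = 0.504 (permutation p = 0.141, adjusted p = 0.377; rho 0.479, permutation p = 0.163), and r = 0.525 without the 2 farthest arrays and 0.762 within set B. Of the 7 NP markers tested in the AF, 6 had a higher mean in ank, with a median difference of 1.47 and none at the thresholds of the study, beside the 72.4% and 0.28 of all AF genes. Of the 6 AF and tendon markers tested, 5 had a lower mean in AF ank, with a median of −0.87. Array AF WT 33 had the highest mean of these 6 markers in the AF, 15.29, against 12.03 to 13.39 in the other AF WT arrays and 11.56 to 13.62 in AF ank. It also had the lowest mean of the 7 NP markers in the AF, 9.56. The part of the AF and tendon markers in the difference of Pmp22 was not tested. With the mean of the NP markers as a covariate the AF difference in Pmp22 was 1.85 (limma, adjusted p = 0.999). AF and tendon markers gave r = 0.151 in the AF (permutation p = 0.688).

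Markers of the myelinating cell itself were at background. Mbp, a major protein of myelin, measured 4.35 to 7.36 in AF ank, 3.23 to 5.53 in AF WT, 5.14 to 6.36 in NP ank and 5.15 to 5.94 in NP WT. Sox10, the transcription factor that defines Schwann cells, measured 4.07 to 5.34, 4.47 to 6.94, 5.14 to 5.70 and 4.98 to 5.68 in the same groups. Both were above background in 0 of 20 arrays. Of the 12 Schwann cell markers measured, S100b alone, which cartilage cells also express, was above background in at least 5 arrays of a tissue. The 12 averaged 5.04 to 5.56 in AF ank, 5.05 to 5.44 in AF WT, 5.33 to 5.76 in NP ank and 5.35 to 5.52 in NP WT. Across the AF arrays their mean gave r = −0.122 with Pmp22 (permutation p = 0.734). Of the 12, 10 were above background in 0 AF arrays, so this r cannot show how Pmp22 relates to Schwann cell content. The 9 neuron markers were below background in every array.

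The genes whose signals were most like that of Pmp22, over all 20 arrays after removal of the tissue means and among 3901 genes, were Twsg1 (r = 0.930), Pacsin2 (r = 0.926), Zfand2a (r = 0.914), Rela (r = 0.906) and Nceh1 (r = 0.905). They held the first 5 ranks also after each array was centred on its median. The median r of all these genes was 0.43, 81 genes exceeded 0.8, and Mtmr2 ranked 132nd with 0.779. Twsg1, which encodes a secreted BMP-binding protein, gave 10.23 to 12.47 in AF ank and 8.35 to 10.72 in AF WT. Zfand2a, a zinc finger protein induced by arsenite, gave 13.46 to 17.33 in AF ank and 10.77 to 13.75 in AF WT. These genes were chosen for their likeness to Pmp22 on the same arrays, so their differences are no independent observation. All 5 met the thresholds of the study in the AF and none in the NP, with differences of 1.38 to 2.48 and adjusted p of 0.946 in the AF.

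The protein family of Pmp22 includes the epithelial membrane proteins and the p53 target Perp. Of 8 members of the family list, Pmp22 among them, 5 were tested in the AF and 6 in the NP. Emp1, an epithelial membrane protein, had a wider spread than any other gene of the 8 or of the relatives tested. It measured 10.70, 12.34, 15.00, 19.59 and 19.59 in AF ank 31, 34, 39, 41 and 48, against 13.35, 16.48, 8.29, 11.84 and 12.80 in AF WT 32, 33, 53, 55 and 59. In the NP it was 9.21, 9.41, 17.34, 19.21 and 17.44 in the same ank mice, against 10.97, 9.25, 12.78, 12.26 and 13.83 in the WT mice. Mice ank 39, 41 and 48 were thus high and ank 31 and 34 low in both tissues, and the means of 15.44 ± 4.08 in AF ank and 12.55 ± 2.95 in AF WT (SD, n = 5 each) did not differ beyond that spread. The signals of AF ank 41 and 48 were identical (19.5885). In the AF, ank 31 and 34 were arrays of set A and ank 39, 41 and 48 of set B, while in the NP ank 39 was in set A. The part of the sets in the Emp1 values was not tested. The Emp1 differences were 2.89 in the AF (SE 1.87, adjusted p = 0.946) and 2.71 in the NP (SE 1.75, adjusted p = 0.973).

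**Figure D5:**
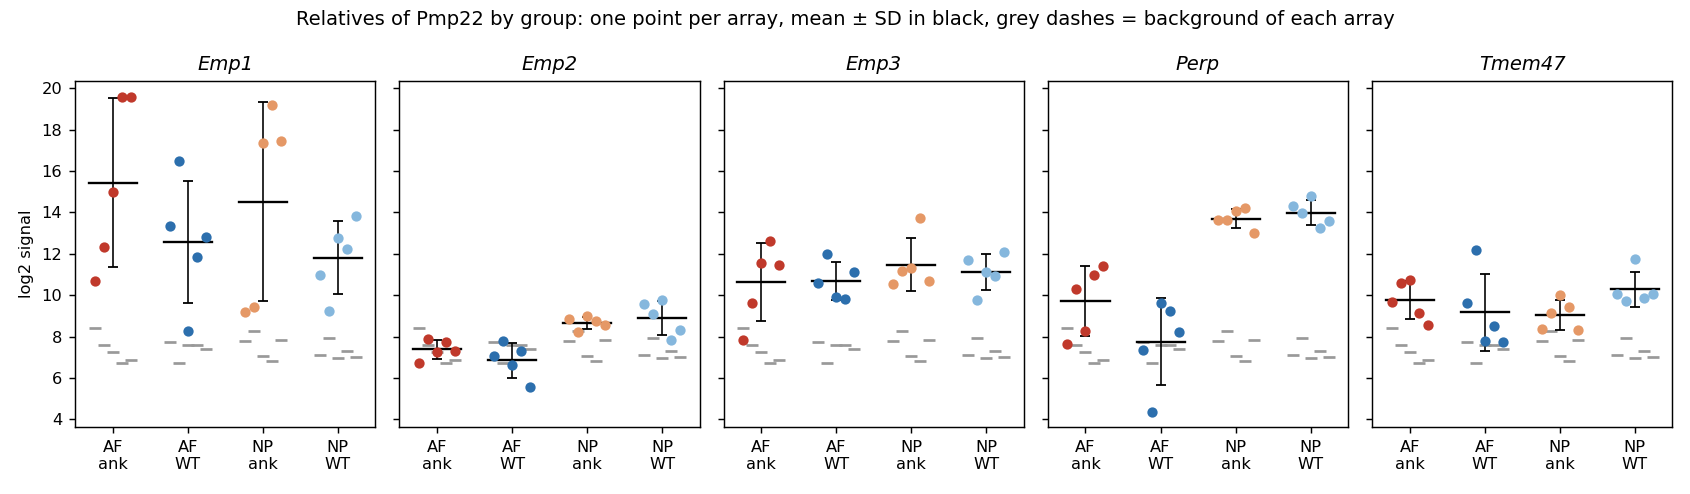
Log2 signal (vertical axis) of 5 relatives of Pmp22 in the 4 groups (horizontal axis), one point per array, mean and SD in black, background of each array as a grey dash. Emp1 spanned 8.29 to 19.59, Perp lay far lower in the AF than in the NP, and Tmem47 had its lowest mean in NP ank (9.06).

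Perp, which encodes a desmosome protein, measured 7.62, 10.31, 8.25, 10.97 and 11.42 in AF ank, against 7.37, 4.37, 9.60, 9.22 and 8.24 in AF WT, a difference of 1.95 (SE 1.02, unadjusted p = 0.080, adjusted p = 0.946). In the NP it measured 13.01 to 14.20 in ank and 13.25 to 14.78 in WT. Perp was lower in the AF than in the NP by 4.72 (estimate −4.72, adjusted p = 2.81e-06), with an estimate of −3.59 after quantile normalization. Tmem47, a junction protein of the same family, was lower in NP ank, at 8.35, 9.13, 10.01, 9.43 and 8.34, against 10.03, 9.71, 11.75, 9.88 and 10.04 in NP WT. Of the ank arrays, 4 lay below every WT array, and the difference of −1.23 (SE 0.44, unadjusted p = 0.015, adjusted p = 0.973) met the thresholds of the study only. In the AF it was 0.58. Emp2 was above background in 3 AF ank, 1 AF WT, 4 NP ank and 5 NP WT arrays, with 6.72 to 7.88, 5.54 to 7.77, 8.24 to 8.99 and 7.85 to 9.77 in these groups. Emp3 differed by −0.07 in the AF and by 0.35 in the NP.

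Among 69 further inherited neuropathy genes, 60 were measured, and 22 were tested in the AF and 35 in the NP. In the AF 18 of 22 had a higher mean in ank (median 0.34), beside 72.4% of all AF genes (median 0.28). After quantile normalization 16 of 22 did (median 0.14), beside 54.5% of all AF genes (median 0.05). On the deposited scale 0 met the thresholds of the study. Vcp, an ATPase that extracts proteins for degradation, had the smallest p, with 7.23 to 10.68 in ank and 6.90 to 9.20 in WT (difference 1.42, unadjusted p = 0.051). In the NP 11 of 35 had a higher mean in ank (median −0.20), beside 37.8% of all NP genes (median −0.11), and again 0 met the thresholds. The NP ank arrays of Hars, the histidyl-tRNA synthetase (8.26 to 8.61), all lay above its NP WT arrays (7.57 to 8.23), with a difference of 0.59 (unadjusted p = 0.040, adjusted p = 0.973). Such a separation was found for 13 of the 6341 NP genes, or 0.205%, and Hars is 1 of the 35 genes of the list.

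The pathways in which the other genes work are set beside the 72.4% of all AF genes and 37.8% of all NP genes with a higher mean in ank. After quantile normalization those shares were 54.5% of all AF genes (median 0.05) and 46.8% of all NP genes (median −0.03). The lists of these pathways include the members themselves. Mtmr2, Fig4 and Lmna are thus counted again in both tissues, and Mfn2 and Litaf in the NP. Of the phosphoinositide list around Mtmr2 and Fig4, 7 of 8 AF genes had a higher mean in ank (median 0.68), as did 4 of 11 in the NP (median −0.24). Mtmr12, an inactive partner of the myotubularins, had the smallest p in the AF (difference 1.08, unadjusted p = 0.087), and Mtmr4 in the NP (−0.52, unadjusted p = 0.150). Of the nuclear lamina list, 5 of 5 had a higher mean in AF ank (median 0.53) and 5 of 11 in NP ank (median −0.04, but 0.08 with 8 of 11 after quantile normalization), among them Sun1, a protein of the inner nuclear membrane, with 0.52 in the AF. Of the list of mitochondrial fusion and fission, 5 of 6 were higher in the mean in AF ank (median 0.31, but −0.08 with 2 of 6 after quantile normalization) and 5 of 11 in NP ank (median −0.06, but 0.13 with 6 of 11). Yme1l1, a protease of the inner mitochondrial membrane that processes the fusion protein Opa1, differed by 0.73 in the AF and by −1.09 in the NP (unadjusted p = 0.053). Of the endosome list, 7 of 8 were higher in the mean in AF ank (median 0.46, but 0.23 with 5 of 8 after quantile normalization) and 4 of 12 in NP ank (median −0.18), and Tsg101, a subunit of the endosomal sorting machinery, differed by 0.95 in the AF (unadjusted p = 0.139). Of the growth arrest-specific genes, Gas1, a membrane protein of resting cells, differed by 1.05 in the AF (unadjusted p = 0.069) and Gas2, a cytoskeletal protein, by 0.45 in the NP (unadjusted p = 0.175). No gene of these 5 lists met the thresholds of the study in either tissue, and 0 passed the adjusted test in limma.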

How the data were processed

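Total RNA of AF and NP tissue was labelled and hybridised to Clariom S arrays. According to its methods the study used RNA with a low integrity number. With sst-rma normalization, the authors made the deposited log2 values from the scans (Transcriptome Analysis Console 4.0.2). No other values were used. Of 28846 probe sets, 22206 stand for genes, 19572 of these have 1 symbol in the annotation, and they represent 19505 genes. Medians differed between AF and NP arrays, and whether the tissues were normalized together is not given in the sources used here.

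Genotypes were compared within each tissue with limma 3.58.1 (R 4.3.3), two-sided, with Benjamini-Hochberg adjustment at 0.05. The interaction and the AF minus NP comparison used all 20 arrays. The AF and NP arrays are paired by mouse. Deviations from the group means correlated by a median of 0.157 within a mouse (−0.185 to 0.677) and −0.016 between mice. Correlations across mice used 100000 permutations. The fits were tested on simulated data. Alternatives were other normalizations, filters and covariates, single sets and sexes, and each mouse left out. Genes named are the 8 members, relatives of Pmp22 above background, the 3 smallest p per list at most, the 5 genes most like Pmp22, and the Schwann cell markers Mbp and Sox10. S100b was named after its values were seen. The members and lists were chosen with earlier results of these data known. Fits within spike-in sets or sexes, with NP markers and without the arrays of lowest AUC were added after seeing the data. The arrays have no read depth, and their number limits the precision.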

Additional observations from a re-analysis of the deposited data

Results flagged for a closer look

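Among 13 genes in 4 groups, 52 groups of 5 arrays were checked for an array far from the other 4, and 3 were found where chance gives 2.6. Mfn2 in AF WT was 8.27 in mouse 33 and 5.87 to 6.15 in the other 4 arrays, and the same array had the highest muscle (13.23), osteoblast (13.92), macrophage and osteoclast (12.30), adipocyte (8.88) and endothelium (8.07) marker means of the AF. Emp3 in NP ank was 13.71 in mouse 41 and 10.53 to 11.29 in the others. Tmem47 in NP WT was 11.75 in mouse 53 and 9.71 to 10.04 in the others, and the difference between the genotypes is the −1.23 given in the report.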

How the results depend on the processing

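With the mouse as a replicate block, the difference of the ank effect between AF and NP in Pmp22 was 2.31 (limma, adjusted p = 0.80) and AF minus NP called 3980 genes and 3 of the 8 members, Fig4 having lost its call (adjusted p = 0.059); no other call of a member changed. The AF difference in Pmp22 kept its sign in every alternative, from 0.70 to 3.16. In the AF, 151 genes met the thresholds of the study, against 562 with array weights, 455 without the arrays of lowest AUC, 438 with a lower background, 488 without a filter, 96 with the NP markers as a covariate, 259 in females, 10 in males, 51 in set A, 974 in set B, and 64 (without ank 48) to 618 (without ank 31) without 1 mouse, with 318 without WT 33, 80 without WT 53 and 67 without ank 41. Of the members, 1 met them, against 2 with array weights, 0 in males, 0 in set A, 3 in set B and 1 to 2 without 1 mouse. Within AF set A, Mtmr2 was −0.20 and Lmna −0.86. In the NP, 210 genes met the thresholds, against 335 with array weights, 379 with a lower background, 413 without a filter and 132 by the methods' t-test. Of the same 6341 genes, 600 met them in males, 230 in set A and 203 in set B. Without 1 mouse, 129 (without WT 53) to 361 (without ank 39) did. Of the members, 0 met them, but 1 did in set A and 1 in set B. The NP difference in Pmp22 was 0.072 with AUC as a covariate, 0.32 in females, 0.40 in set B and −0.37 to 0.24 without 1 mouse. Other NP signs that turned were Fig4 with array weights (−0.092), in males (−0.24), in set A (−0.19) and without 1 mouse (−0.18 to 0.25), Mtmr2 in females (0.12) and without 1 mouse (−0.69 to 0.10), Mfn2 in females (0.25), Lmna in set A (−0.043) and Litaf in set B (0.41). AF minus NP called 3966 genes, against 7669 without a filter and 2598 after quantile normalization. Of the members it called 4, against 2 after quantile normalization and 2 (without WT 53 or ank 39) to 4 without 1 mouse. The 4, the 2 after quantile normalization and the 3 with the mouse as a block include Mfn2, which entered the test through the NP. After quantile normalization Fig4 was 0.024, Lmna 0.79 and Litaf 0.36. Without 1 mouse, AF minus NP was −0.23 to 0.13 for Lmna and −0.12 to 0.10 for Litaf. The causes were not tested. Fits within sets or sexes rest on 2 or 3 mice per genotype, and genes near background, such as Litaf and Fig4 in the AF, have limited signal.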
